A study of Daphnia magna with 20 samples.

Results

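Fumed silica is amorphous silicon dioxide in the form of very small fused particles, and Daphnia magna is a freshwater crustacean that filters particles of this kind from the water along with its algal food. The comparison described here sets 5 RNA libraries from daphnids exposed to fumed silica against 5 libraries from the vehicle control, which are 10 of the 20 libraries of a chronic exposure study. The silica group received a nominal 2.3e12 per litre, for which the labels give no particle unit, and the exposure ran for 21 days in 15 vessels per level with 1 daphnid added to each. The other 10 libraries come from an ethylene acrylic acid copolymer at 2.3e11 (nano_low) and at 2.3e12 (nano_high) particles per litre, and serve below only to place the silica values. All groups shared the same food, renewal and static test conditions, and RNA was taken from pooled whole animals. The labels describe the stage as neonates, whereas the protocol ends on day 21, and the age at RNA sampling is therefore unclear. Nothing says that the libraries of a group come from separate cultures, so the p-values cover only the spread between these samples, which may be technical. No strain or sex is given.

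The ribosome is the machine that translates messenger RNA into protein, and it is built from a large (60S) and a small (40S) subunit, each a scaffold of RNA covered by many ribosomal proteins. Transcripts of ribosomal proteins are among the most abundant of a cell, and in animals they tend to be regulated together, with growth and nutrition. Daphnids carry in their whole-body RNA the transcripts of gut, muscle, eye, epidermis, ovary and developing brood, so a level measured here is a sum over tissues. In such samples a smaller share of cells of one type and less of an RNA per cell cannot be told apart.

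Levels are given as CPM, the counts of a name per 1000000 counts of its library after TMM normalization, which corrects for a few very abundant names. A name is the protein description under which the deposited table sums its counts. Differences were tested by edgeR's quasi-likelihood method, p-values were adjusted by Benjamini-Hochberg over the 7564 tested names, and a name with an adjusted p under 0.05 is said to be called. Control libraries held 11918440 to 26562258 counts and silica libraries 7912434 to 54862334, where silica 1 was the deepest and silica 4 and 5 the shallowest. The first principal component of log2 CPM over the 20 libraries, which held 38.9% of the variance, placed control 4 and control 5 at -54.0 and -55.2 and controls 1 to 3 between -12.2 and 17.0. All 5 silica libraries lay between 12.4 and 39.9 on it. Controls 4 and 5 thus stood apart from every silica library and from the other controls, and the value without both is given for the named names it moved by over 1.5 times and for the list medians it moved most. Defining tissue transcripts were present in every library of both groups: the summed level of 26 muscle names ran from 15140 to 26780 CPM in control and from 22050 to 31880 in silica, and that of 24 eye and phototransduction names from 4108 to 8586 and from 3019 to 3430.

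Silica-exposed daphnids had lower levels of cytosolic ribosomal protein transcripts than controls, and 26 names outside that list were called as well. In total 53 of 7564 names (0.701%) were called, 42 lower in silica (0.555%) and 11 higher (0.145%). Of these, 27 of the 42 that fell were among 99 tested names of cytosolic ribosomal proteins, and none of the 11 that rose was. Before adjustment 1754 names had a p under 0.05, 831 higher and 923 lower. The changes were small: log2 fold changes ran from -1.69 to -0.39 among names that fell and from 0.32 to 1.32 among those that rose, 3 of the 53 names changed over 2-fold, and the median over all tested names was 0.03.

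The calls lay close to the threshold. The lowest adjusted p was 0.0227, for 60s ribosomal protein l23, and the highest among the called names 0.04997. No name was called without control 2, control 3, control 4, control 5, silica 1, silica 4 or silica 5, and the 10 fits that left out 1 library gave 1088 to 2188 names with an unadjusted p under 0.05. Without silica 2 and without silica 3 the counts were 9 and 5, and without control 1 the count was 132. It was 0 without controls 4 and 5 together and 0 with the first component as a covariate. It was 399 by DESeq2 and 401 when only the silica and control libraries entered the edgeR fit, of which 64 and 63 were cytosolic ribosomal names. The called names are therefore described through their library values. For all 53 the 5 silica libraries lay wholly on one side of the 5 controls, which their choice by p from the same libraries all but fixes and which gives the calls no support. Over all tested names 5.17% had every silica library below every control and 3.52% had every silica library above.

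**Figure D1:**
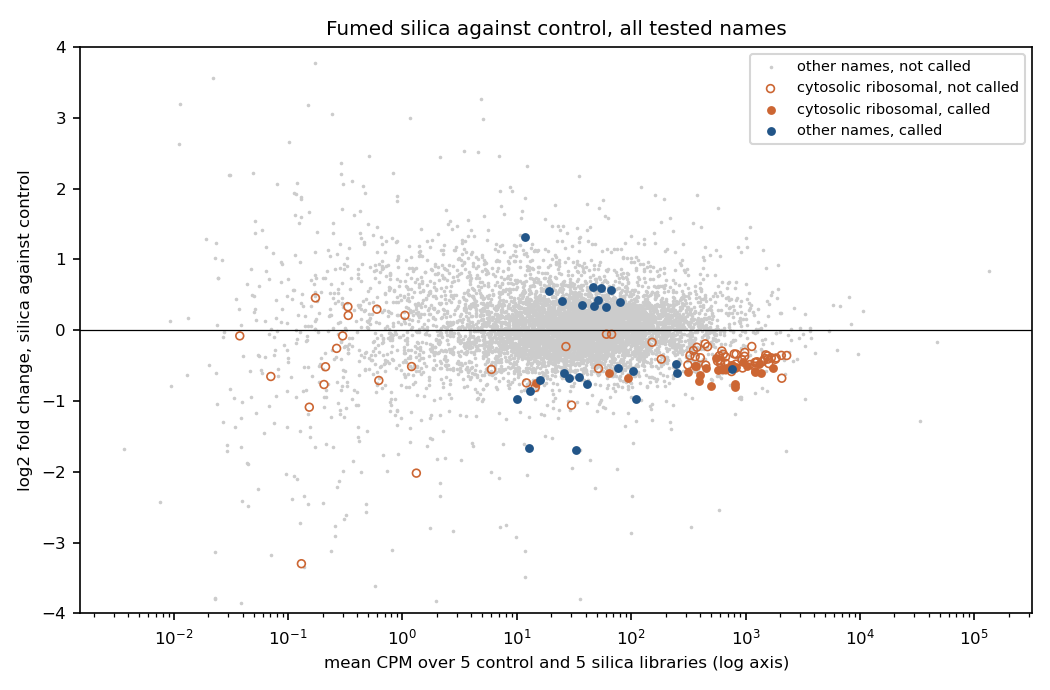
Log2 fold change of silica against control (vertical axis) against mean CPM over the 10 libraries (horizontal axis, log scale) for each tested name, with 30 names lying outside the vertical range. The called ribosomal names (filled orange, 27) and those not called (open orange) form a group below 0 at high abundance, and the 26 other called names (blue) lie on both sides.

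Most ribosomal names lay lower in silica, whether called or not. Of the 99 names, 94 had a log2 fold change below 0 and the list median was -0.47, beside 47.1% below 0 and a median of 0.03 over all names. Summed over the list, control 1 to 5 held 68190, 73680, 76240, 81600 and 81570 CPM, and silica 1 to 5 held 52160, 60950, 59560, 51070 and 53850 CPM. No silica library reached the lowest control, and this held for controls 1 to 3 as for controls 4 and 5, which were the highest. In 66 of the 99 names every silica library lay below every control (5.17% over all names), and 39 of these 66 were not called. The median was -0.43 to -0.50 in the fits that left out 1 library and -0.40 without controls 4 and 5. It was -0.28, with 0 ribosomal names called, when the first component was a covariate, and the part of that component in the ribosomal values was not tested.

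Both subunits took part, beside 0.555% of all names that fell. Of 54 names of the large subunit 15 fell, with a median of -0.47, and 52 were below 0. Of 40 names of the small subunit 10 fell, with a median of -0.45, and 38 were below 0. Of 5 names of the acidic proteins that form the stalk of the large subunit, the arm that recruits translation factors, 2 fell, and the median was -0.76. All 82 ribosomal names with a mean of at least 10 CPM over the 20 libraries had a fold change below 0, from -1.06 to -0.06. The 5 names above 0 were among the 17 of lower abundance, all of which carry an added gene tag in the table.

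60s ribosomal protein l23, a protein of the face of the large subunit that meets the small one, had the lowest p of all names. Its level was 459, 476, 529, 484 and 497 CPM in control 1 to 5 and 299, 330, 343, 290 and 230 CPM in silica 1 to 5. The groups did not overlap, and silica 5 was the lowest of the 10 libraries. The log2 fold change was -0.71 (SE 0.11, adjusted p = 0.0227 by edgeR), and it stayed between -0.77 and -0.63 under all 22 alternatives tried, 11 of which called it. For 60s acidic ribosomal protein p2, one of the stalk proteins, controls held 877, 1024, 1186, 1014 and 1072 CPM and silica libraries 579, 596, 755, 555 and 475 CPM. The change of -0.81 (SE 0.15, adjusted p = 0.0415 by edgeR) was the largest fall among the called ribosomal names, and its partner 60s acidic ribosomal protein p1 fell by 0.76 on the log2 scale, from 1021 ± 145 to 601 ± 60.1 CPM (SD, n = 5 each).

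In the small subunit, 40s ribosomal protein s16/arp2_g6159 was at 461, 515, 503, 486 and 467 CPM in the controls and at 340, 338, 341, 307 and 241 CPM in the silica libraries. All 5 silica values lay below all controls (log2 change -0.63 with SE 0.11, adjusted p = 0.0415 by edgeR). A second name for the same protein, 40s ribosomal protein s16, fell by 0.51, from 422 ± 32.2 to 296 ± 23.1 CPM; reads of 2 such copies may be split between them, so neither value can be tied to 1 gene. 40s ribosomal protein s20 held 503 to 699 CPM in control and 322 to 456 CPM in silica, a fall of 0.78 on the log2 scale. 40s ribosomal protein s3, which lines the channel where messenger RNA enters, was among the most abundant called names, at 1440 to 1636 CPM in control and 959 to 1235 CPM in silica (log2 change -0.48 with SE 0.10, adjusted p = 0.0437 by edgeR).

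The 6 most abundant names that fell were s3 and 5 proteins of the large subunit. 60s ribosomal protein l19 was at 1939, 2011, 2100, 2080 and 2096 CPM in control and at 1295, 1573, 1504, 1296 and 1374 CPM in silica. Its controls spanned a narrow range and its silica libraries lay well below it, at a log2 fold change of -0.54 (SE 0.11). 60s ribosomal protein l18, 60s ribosomal protein l13a, 60s ribosomal protein l15 and 60s ribosomal protein l35a fell by 0.60, 0.59, 0.57 and 0.51. 60s ribosomal protein l5/arp2_g6205, a low-abundance copy of the protein that carries the 5S RNA into the ribosome, held 16.3 to 20.1 CPM in control and 8.23 to 12.3 CPM in silica, a fall of 0.75. 60s ribosomal protein l24 had the smallest change of the 27 called ribosomal names, a fall of 0.39. In 12 of the 27 the highest 2 controls were controls 4 and 5 (23.9% over all names).

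**Figure D2:**
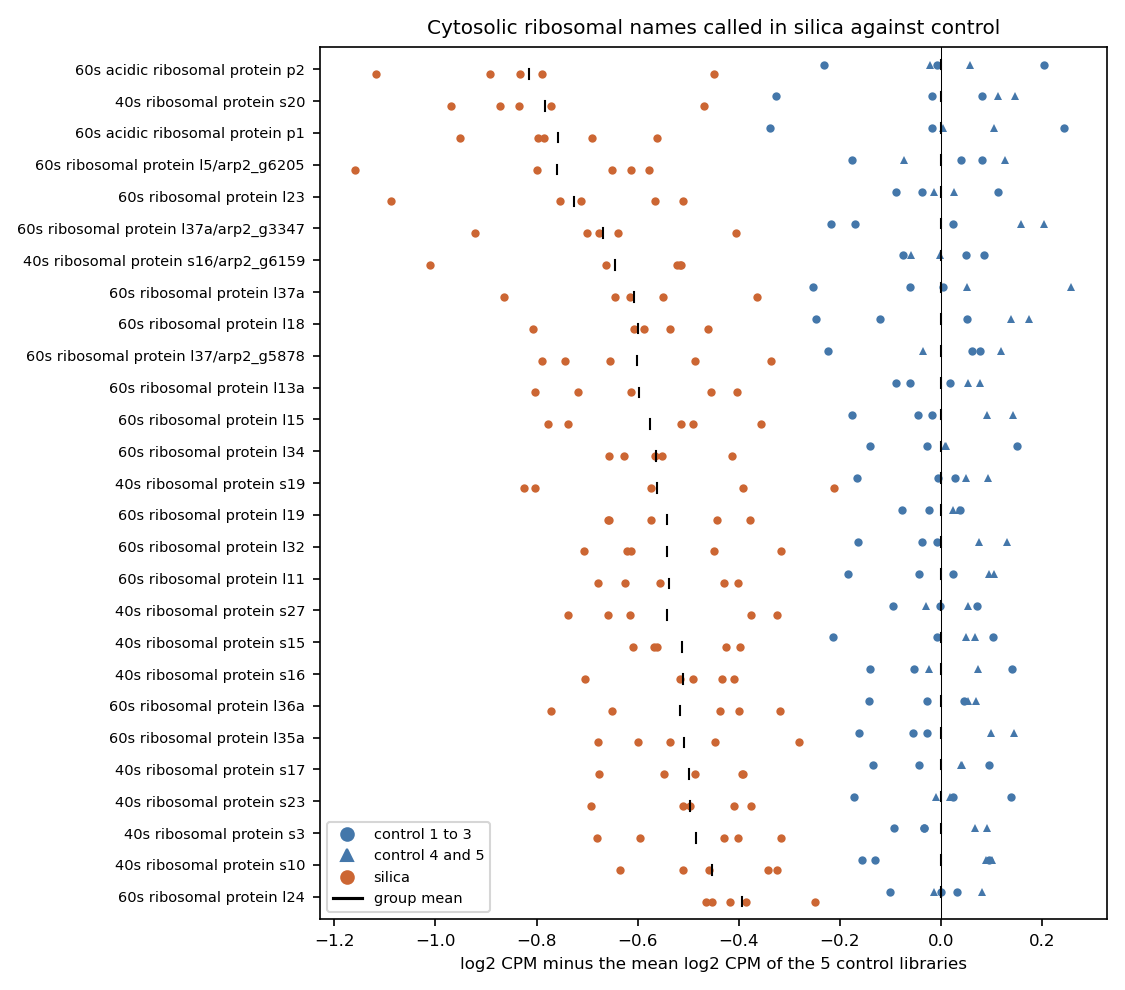
Log2 CPM of the 27 called cytosolic ribosomal names in each library, relative to the mean of the 5 controls, with blue for control (triangles for controls 4 and 5), orange for silica and bars for group means. In every row the 5 silica libraries lie left of the 5 controls, and in 12 of the 27 rows the triangles are the rightmost controls.

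Ribosomal protein ubq/l40e, a ubiquitin fused to a protein of the large subunit, fell from 288 ± 23.6 to 207 ± 22.5 CPM (log2 change -0.48 with SE 0.11, adjusted p = 0.0437 by edgeR). It counts among the 26 called names outside the ribosomal list, whose pattern does not match its name. 30s ribosomal protein s8/arp2_g2243, singled out after its values were seen, was not called, at 87.5 to 110 CPM in control and 50.7 to 75.6 CPM in silica (log2 change -0.65 with SE 0.16, adjusted p = 0.0571 by edgeR). The 64 names of mitochondrial ribosomal proteins, which build the separate ribosome of the mitochondrion, had no called member, and their median was 0.23 with 59 above 0; their summed level was 1667 to 2824 CPM in control and 2329 to 2749 CPM in silica. That median was 0.04 without controls 4 and 5 and -0.09 with the first component as a covariate, so its sign was not stable.

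Most names of genes that make and run ribosomes had fold changes below 0, and none passed the test (0.701% over all names did). Of 40 ribosome biogenesis and nucleolus names 38 were below 0, with a median of -0.44 and 0 called. Of the 40, 23 were lower at an unadjusted p under 0.05, beside 923 of all 7564 names. The smallest p was that of rrna 2'-o-methyltransferase fibrillarin, which modifies ribosomal RNA in the nucleolus, at 167, 251, 201, 275 and 310 CPM in control and 110, 160, 157, 143 and 163 CPM in silica. These groups did not overlap, yet the adjusted p was 0.128 (log2 fold change -0.72, SE 0.24). Of 71 translation factors and tRNA synthetases 58 were below 0, with a median of -0.12 and 0 called; eukaryotic translation initiation factor 3 subunit f had 110 to 126 CPM in control and 88.6 to 99.7 CPM in silica (adjusted p = 0.0702 by edgeR). With the first component as a covariate the medians of these lists were -0.02 and -0.03, and that of the ribosomal list was -0.28 with 0 of its names called.

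Proteasome and splicing names had 1 call each (0.701% over all names were called). The proteasome is the complex that degrades ubiquitin-tagged proteins: of its 22 names 1 fell, 20 were below 0 and the median was -0.27 (-0.13 with the covariate). 26s proteasome non-atpase regulatory subunit/arp2_g1763, part of the cap that admits substrates, held 28.2, 34.7, 34.1, 28.9 and 30.6 CPM in control and 20.7, 22.2, 22, 16.2 and 21.6 CPM in silica. Silica 4 lay below the other silica libraries, and all of them below the controls (log2 change -0.61 with SE 0.13, adjusted p = 0.0437 by edgeR). Of 57 splicing factors 1 fell, and the median was -0.24. It was pre-mrna-splicing factor cwc22/arp2_g2533, a spliceosome component, at 13.4, 15.6, 17.6, 17.8 and 20.4 CPM in control and 9.97, 10.7, 7.37, 7.37 and 11.2 CPM in silica (log2 change -0.86 with SE 0.19, adjusted p = 0.0437 by edgeR). Histones had a median of -0.42 over 16 names and 86 DNA replication and cell cycle names one of -0.20, with 0 called in both, and these were -0.26 and -0.09 without controls 4 and 5.

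The 11 names that rose included membrane and signalling proteins. Fibulin 1 and, a description cut short that names a calcium-binding glycoprotein of the extracellular matrix, rose most. Its level was 6.92, 10.6, 2.99, 6.31 and 6.54 CPM in control 1 to 5 and 11.7, 15.3, 17.7, 18.3 and 20.9 CPM in silica 1 to 5. The highest control, control 2, came close to the lowest silica library, silica 1 (log2 change 1.32 with SE 0.28, adjusted p = 0.0437 by edgeR). Calcium-activated chloride channel regulator 4/sw, named for a protein that modulates chloride conductance, held 52.0, 43.1, 40.3, 38.1 and 45.4 CPM in control and 64.5, 58.3, 55.9, 77.0 and 75.4 CPM in silica. It had one of the 4 smallest p of all names (log2 change 0.60 with SE 0.11, adjusted p = 0.0415 by edgeR).

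Disabled, an adaptor protein that links membrane receptors to endocytosis and to kinase signalling in flies and mammals, was at 42.1, 39.6, 28.1, 35.8 and 37.4 CPM in control and at 53.0, 54.9, 58.6, 55.1 and 56.7 CPM in silica. The silica libraries lay close to each other and all above the controls (log2 change 0.61 with SE 0.11, adjusted p = 0.0415 by edgeR). Tgf-beta receptor type iii/sw, a co-receptor that presents the growth factor to its signalling receptors, rose from 15.6 ± 1.18 to 22.8 ± 0.821 CPM (log2 fold change 0.55). Denn domain-containing protein 4b, an activator of Rab proteins of vesicle traffic, rose by 0.57, and phosphatidylinositol 4-phosphate 5-kinase type-1 beta, which makes a membrane lipid used in signalling, by 0.36. Tumor necrosis factor alpha-induced protein 8 protein 3, a lipid transfer protein in mammals, was at 22.3, 22.9, 23.4, 20.8 and 16.7 CPM in control and at 28.4, 26.8, 27.4, 30.2 and 29.2 CPM in silica (log2 change 0.42 with SE 0.09, adjusted p = 0.0468 by edgeR).

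The other names that rose were structural or act on RNA and chromatin. Myosin-2 heavy chain, non muscle, the motor of contractile actin bundles, held 48.2 to 58.2 CPM in control and 64.4 to 71.1 CPM in silica, a log2 fold change of 0.32. Sarcolemmal membrane-associated protein, a membrane-anchored coiled-coil protein, rose by 0.34. Polyadenylate binding protein ii, which sets the length of poly(A) tails in the nucleus, rose by 0.39, and bromo adjacent domain-containing 1 protein, a silencing factor of chromatin in human cells, by 0.42. Of the 49 names for ion channels and pumps 1 rose (0.145% over all names), the chloride channel regulator above. Of the 49, 43 were above 0 and the median was 0.49.

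Outside the ribosomal list 15 names fell, among them ribosomal protein ubq/l40e described above. For 7 of the 15 controls 4 and 5 were the highest 2 controls (23.9% over all names). Copper-zinc superoxide dismutase, an enzyme that turns superoxide into hydrogen peroxide, fell most. Control 1 to 5 held 27.1, 42.3, 41.4, 76.7 and 62.0 CPM of it, and silica 1 to 5 held 11.3, 11.7, 20.0, 17.8 and 17.1 CPM. Every silica library was below the lowest control, and controls 4 and 5 were the highest. The log2 fold change was -1.69 (SE 0.35, adjusted p = 0.0437 by edgeR), and -1.25 (adjusted p = 0.309) without controls 4 and 5. Tyrosine phosphatase domain-containing protein, named for the removal of phosphate from tyrosine, was at 14.9, 9.08, 9.82, 27.9 and 35.8 CPM in control and at 5.65, 6.08, 6.93, 6.32 and 5.60 CPM in silica. Its change of -1.67 (SE 0.36, adjusted p = 0.0437 by edgeR) became -0.88 (adjusted p = 0.443) without controls 4 and 5.

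In 2 further names described here controls 4 and 5 were also the highest. The same held for pre-mrna-splicing factor cwc22/arp2_g2533 above and for inx3 below. Phosrestin i arrestin b arrestin/arp2_g2688 is named for arrestin, which shuts off activated visual pigment. It held 100, 119, 110, 224 and 177 CPM in control and 98.1, 68.4, 73.1, 66.2 and 67.6 CPM in silica, with silica 1 just below control 1. Of 24 eye and phototransduction names it was the 1 that fell (0.555% over all names), and the list median was 0.05. In 4 of the 24 every silica library lay below every control (5.17% over all names), as did the summed level. For the arrestin name the values were as follows. The log2 fold change was -0.97 (SE 0.21, adjusted p = 0.0437 by edgeR), and -0.55 (adjusted p = 0.413) without controls 4 and 5. Wd-repeat protein/arp2_g2370 held 9.33 to 17.4 CPM in control and 5.86 to 7.76 CPM in silica, a change of -0.98, and -0.66 (adjusted p = 0.339) without these controls. The part that the position of controls 4 and 5 plays in these values was not tested beyond leaving them out.

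In some other names that fell the 5 controls lay together. Immediate early response 3-interacting protein, which acts in the secretory pathway of the endoplasmic reticulum, was at 35.7, 35.8, 36.0, 33.9 and 36.0 CPM in control and at 21.5, 23.4, 17.99, 24.0 and 24.3 CPM in silica. The groups were apart by several times the spread of the controls (log2 change -0.68 with SE 0.15, adjusted p = 0.0437 by edgeR). Ankyrin/arp2_g7825, named for a repeat that binds other proteins, held 49.8, 61.3, 51.1, 46.7 and 48.2 CPM in control and 28.3, 32.1, 32.5, 31.6 and 27.0 CPM in silica. The highest silica library lay well below the lowest control (log2 change -0.76 with SE 0.16, adjusted p = 0.0437 by edgeR), and without controls 4 and 5 the change was -0.83. Conserved protein/arp2_g6874, a name without a function, was at 279 to 321 CPM in control and at 184 to 225 CPM in silica and had one of the 4 smallest p (log2 change -0.60 with SE 0.11, adjusted p = 0.0415 by edgeR).

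Atp synthase subunit s protein, a coupling factor of the mitochondrial ATP synthase, held 861, 931, 1022, 862 and 839 CPM in control and 614, 680, 674, 585 and 546 CPM in silica. It fell by 0.54 (SE 0.11, adjusted p = 0.0437 by edgeR) and was the only call among 72 oxidative phosphorylation names, of which 55 were above 0, with a median of 0.15 (-0.02 without controls 4 and 5 and -0.19 with the first component as a covariate). Selenoprotein m, a redox protein of the endoplasmic reticulum, fell from 90.5 ± 7.33 to 62.2 ± 4.42 CPM, and inx3, a gap junction protein of invertebrates, from 123 ± 24.7 to 82.6 ± 11.9 CPM. For inx3 controls 4 and 5 were the highest 2 controls, and its change of -0.57 was -0.35 (adjusted p = 0.451 by edgeR) without them. Enhancer of rudimentary, a small conserved nuclear protein, and williams-beuren syndrome chromosomal region 27 protein fell by 0.66 and 0.70. All 53 called names kept their direction under each of the 22 alternatives. Their choice by p from the same libraries all but fixes this, so it gives the calls no support.

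**Figure D3:**
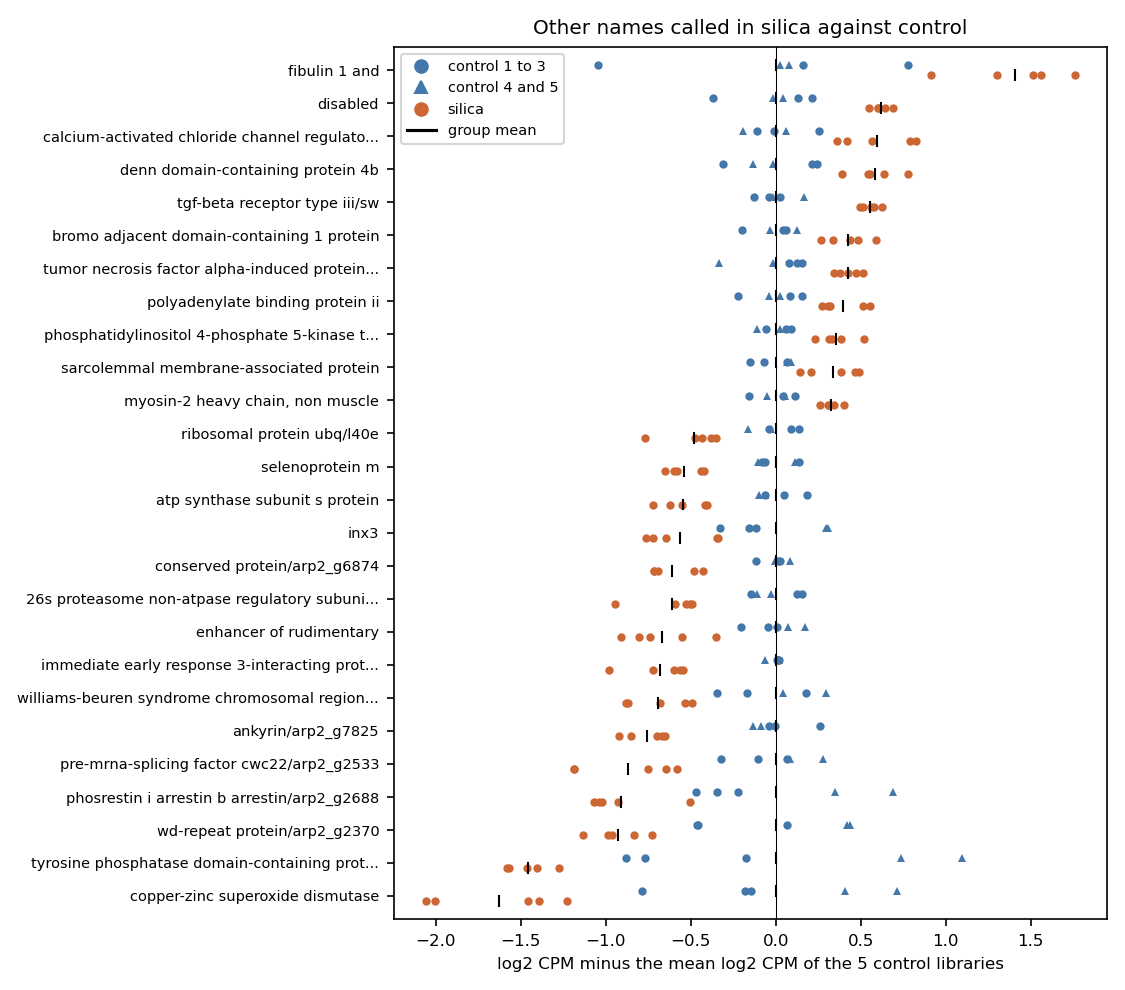
Log2 CPM of the 26 called names outside the cytosolic ribosomal list in each library, relative to the mean of the 5 controls, with blue for control (triangles for controls 4 and 5), orange for silica and bars for group means. The 2 bottom rows show controls 4 and 5 to the right of the other controls, while controls lie close together for immediate early response 3-interacting protein.

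Transcripts linked to defence against particles, metals and oxidants showed few calls, and over all names only 0.701% were called. Of 26 antioxidant names 1 fell, the dismutase above, and the median was 0.00. A second dismutase name, copper-zinc cu-zn superoxide dismutase., singled out for its abundance after its values were seen, was not called: it held 170960, 118630, 93928, 57516 and 40072 CPM in control and 180200, 155950, 191980, 138200 and 192910 CPM in silica (log2 change 0.84 with SE 0.33, adjusted p = 0.157 by edgeR). Here controls 4 and 5 were the lowest, and control 1 lay within the silica range. The change was 0.43 without controls 4 and 5. Of 18 metal handling names 0 were called, with a median of -0.19 (-0.08 without controls 4 and 5). Metallothionein protein crs5, a metal-binding protein, held 116, 137, 152, 217 and 257 CPM in control and 94.5, 131, 98.3, 87.7 and 92.3 CPM in silica, an overlap of the 2 groups through silica 2 (log2 change -0.80 with SE 0.20, adjusted p = 0.0670 by edgeR, and -0.42 without controls 4 and 5).

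Detoxification and stress lists had 0 calls each. Over all names 0.701% were called, so 0 calls in lists this short do not show that a response was absent. The medians were -0.28 for 27 cytochrome P450 names, enzymes that oxidise foreign compounds (-0.14 without controls 4 and 5), 0.05 for 27 names of phase II conjugation, 0.13 for 16 ABC transporters and -0.03 for 32 heat shock and chaperone names. Glutathione s-transferase s1 had the smallest p of the conjugation list, with 326 to 411 CPM in control and 209 to 308 CPM in silica (log2 change -0.43 with SE 0.12, adjusted p = 0.0874 by edgeR). Cytochrome p450 304a1 was at 19.7 to 37.6 and 14.2 to 19.6 CPM, and heat shock 70 kda protein 12b at 151 to 199 and 110 to 136 CPM, neither overlapping nor called; the change of the latter was -0.45, and -0.29 without controls 4 and 5. Of 45 innate immunity names 0 were called and the median was 0.04; c-type lectin ctl., a sugar-binding protein, was at 1.69 to 4.33 CPM in control and 6.03 to 8.30 CPM in silica (adjusted p = 0.157 by edgeR). The 5 hemoglobin names, whose products carry oxygen in daphnid blood, had a median of -0.07, and di-domain hemoglobin precursor held 2839 to 3983 CPM in control and 2398 to 3274 CPM in silica.

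In the gut, where swallowed particles pass, no name of the 4 lists below was called (0.701% over all names). The peritrophic matrix is the chitin sheath that lines the gut lumen. The name with the smallest p there, cdd: cbm_14, chitin binding peritrophin-a domain, held 177, 249, 265, 383 and 527 CPM in control and 50.4, 139, 159, 110 and 149 CPM in silica. Silica libraries were all lower, with controls 4 and 5 again highest (log2 change -1.40 with SE 0.39, adjusted p = 0.0820 by edgeR, and -0.92 without controls 4 and 5). The medians were -0.05 over 10 peritrophic matrix and mucin names, 0.11 over 24 names of chitin turnover, -0.25 over 26 digestive proteases and -0.35 over 20 digestive carbohydrases and lipases. The last 2 were -0.06 and -0.05 without controls 4 and 5. Lysosome, endocytosis and autophagy lists, the routes by which cells take up and break down particles, had 0 calls (0.701% over all names). Their medians were 0.13, 0.07 and -0.05 over 45, 90 and 30 names. Disabled and denn domain-containing protein 4b, which rose and act in endocytosis and vesicle traffic, are not in these lists, whose patterns do not match their names.

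Lists tied to reproduction and moulting spread widely between libraries. Vitellogenin-1 precursor, the yolk protein precursor taken up by eggs, held 26200, 50430, 32250, 77640 and 49580 CPM in control and 9319, 17380, 26190, 17150 and 27000 CPM in silica. Silica 5 lay above control 1 and silica 3 level with it, and the other silica libraries lay below all controls. The change of -1.28 (SE 0.49) was not called (edgeR adjusted p = 0.154). The 4 names of the yolk list, which are vitellogenin and vitelline membrane outer layer protein names, had a median of -0.96. This median was -0.60 without controls 4 and 5 and -0.26 with the first component as a covariate. Not all 4 followed it, as vitelline membrane outer layer protein 1 /sw ran from -0.28 to 0.08 over the 22 alternatives. Of 41 cuticle names 0 were called (0.701% over all names), with a median of 0.77 that was 0.29 without controls 4 and 5 and -0.35 with the covariate. Cuticular protein was at 1372 to 5744 CPM in control and 867 to 1394 CPM in silica, a log2 change of -1.71 that was -0.92 without controls 4 and 5. The 57 collagen and extracellular matrix names had a median of 0.40 with 49 above 0, the 26 muscle names one of 0.38 and the 28 ecdysteroid and juvenoid names one of 0.35, all with 0 called. Without controls 4 and 5 these were 0.15, 0.17 and 0.27. Muscle m-line assembly protein unc-89, a giant protein of the sarcomere, was at 242 to 316 CPM in control and 347 to 396 CPM in silica without overlap (adjusted p = 0.103 by edgeR).

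Ribosomal proteins are short, and the level of long and short transcripts may differ with RNA quality or library preparation. Among names outside the other lists, 47 of proteins taken as short had a median of -0.07 and 31 of proteins taken as long a median of 0.19. Nesprin-1, a very long protein that ties the nucleus to the cytoskeleton, was at 234 to 341 CPM in control and 364 to 495 CPM in silica (log2 change 0.55 with SE 0.14, adjusted p = 0.0723 by edgeR). Of the 31 long names 7 had every silica library above every control (3.52% over all names) and 0 had every one below. Of the 47 short names 5 had every silica library below every control (5.17% over all names) and 0 had every one above. The ribosomal median was -0.47, and the part of length in it was not tested.

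**Figure D4:**
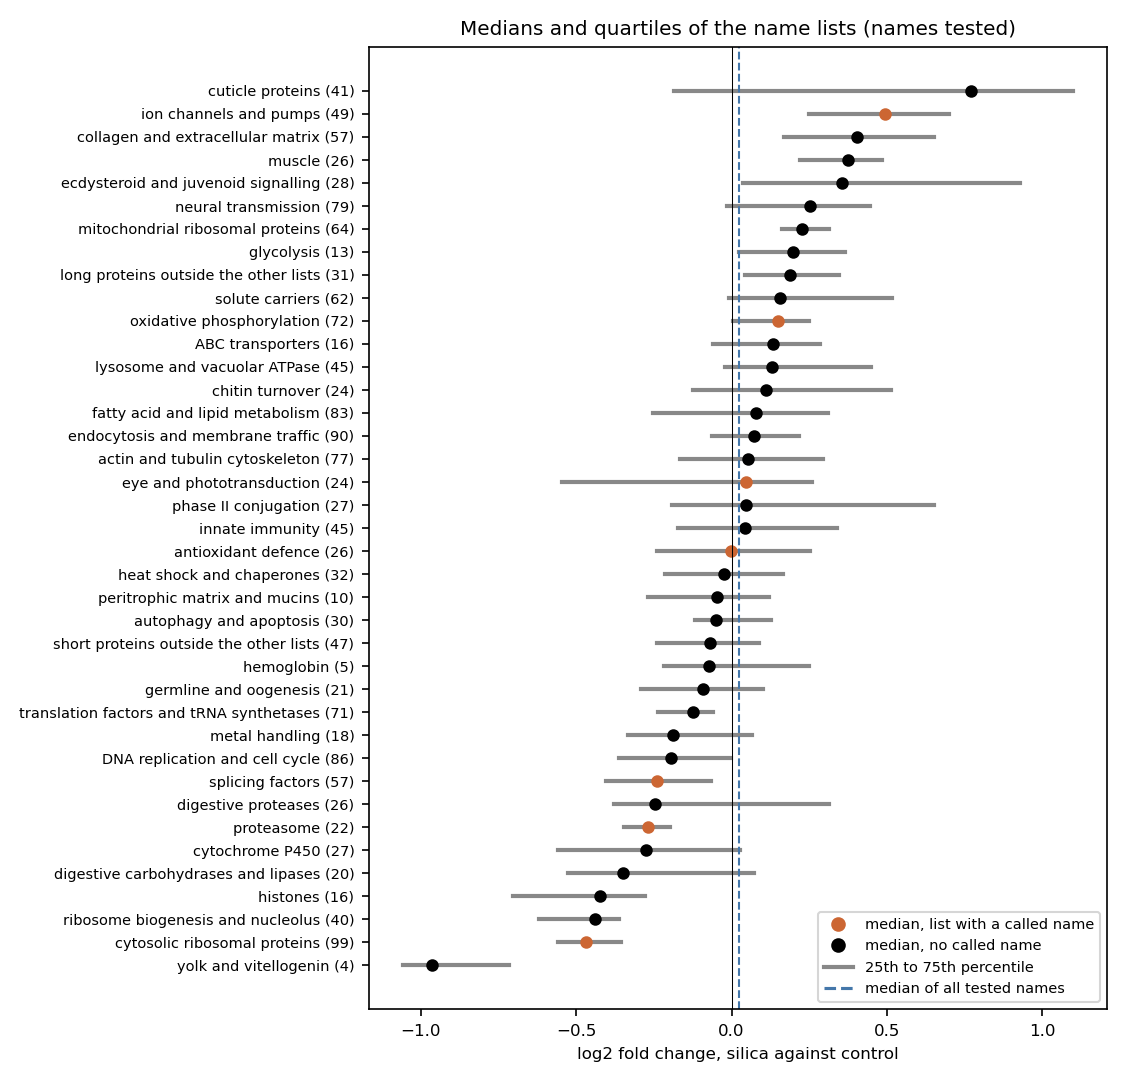
Median log2 fold change of silica against control (dots) and the 25th to 75th percentile (bars) of 39 lists, with the number of names tested in brackets and the median of all tested names as a dashed line. The quartiles of cytosolic ribosomal proteins and of ribosome biogenesis lie wholly below 0. So do those of yolk and vitellogenin, histones, proteasome, splicing factors, translation factors and tRNA synthetases, and DNA replication and cell cycle. Orange dots mark the 7 lists that held a called name.

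Silica was also set against the polymer at the same nominal number per litre. In silica against nano_high 405 names (5.35%) were called, 226 higher (2.99%) and 179 lower (2.37%) in silica, with 77 to 648 called when 1 library was left out. The counts were 77, 112 and 148 without nano_high 5, 2 and 4, 90, 115 and 180 without silica 1, 4 and 5, and 648 and 614 without nano_high 1 and 3. Nano_high libraries were deeper, from 39087882 to 95906857 counts, than all silica libraries but silica 1, and 2 of them, nano_high 4 and 5, lay at -53.2 and -33.6 on the first principal component. The part of these 2 differences was not tested beyond the fits above. Of the 53 names called against control, 3 differed between silica and nano_high and for 50 no difference was called.

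Those 3 names were superoxide dismutase, the splicing factor and the lipid transfer protein. Copper-zinc superoxide dismutase was at 29.6, 32.0, 20.5, 82.5 and 53.5 CPM in nano_high 1 to 5, above every silica library (log2 difference of silica minus nano_high -1.49 with SE 0.35, adjusted p = 0.0244 by edgeR). For pre-mrna-splicing factor cwc22/arp2_g2533 the mean in nano_high was 15.1 ± 3.84 CPM against 9.33 ± 1.84 in silica (log2 difference -0.70, adjusted p = 0.0373 by edgeR). Tumor necrosis factor alpha-induced protein 8 protein 3 was at 18.3 ± 1.10 CPM in nano_high and 28.4 ± 1.37 in silica, with control between them at 21.2 ± 2.72 (log2 difference of silica minus nano_high 0.63 with SE 0.09, adjusted p = 0.00264 by edgeR).

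Over the 99 ribosomal names the median log2 change from control was -0.47 in silica, -0.38 in nano_high and -0.39 in nano_low. Single names differed in how near the polymer groups came to silica. 60s ribosomal protein l23 had 288 ± 32.3 CPM in nano_high and 291 ± 31.1 in nano_low beside 298 ± 44.1 in silica, and its log2 difference of silica minus nano_high was 0.05 with an SE of 0.11. Over the 99 names the median difference from nano_high was -0.11, and 3 of 99 were called, all lower in silica, a share near the 2.37% over all names. They were, named after their values were seen, 40s ribosomal protein s4/arp2_g5907 (-0.58), 60s ribosomal protein l7 (-0.42) and 60s ribosomal protein l13 (-0.41). For l7 and l13 nano_high lay level with control (log2 difference -0.03 and -0.0008). 60s acidic ribosomal protein p2 had a difference of silica minus nano_high of -0.52 (adjusted p = 0.0506 by edgeR). The ribosomal count was 7 by RLE size factors, 15 by DESeq2 and 0 to 12 when 1 library was left out. RLE and DESeq2 called 218 and 512 of all 7564 names lower. The summed ribosomal level ran from 54010 to 74210 CPM in nano_high and from 47680 to 70650 CPM in nano_low, overlapping both silica and control. Of the polymer libraries only nano_high 4 and nano_low 1 reached the lowest control. These lay at -53.2 and -55.1 on the first principal component. Against nano_low 0 of 7564 names were called (0%), the lowest adjusted p was 0.389, 431 names had an unadjusted p under 0.05, and DESeq2 called 8. That count of 0 does not show that silica and nano_low act alike.

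**Figure D5:**
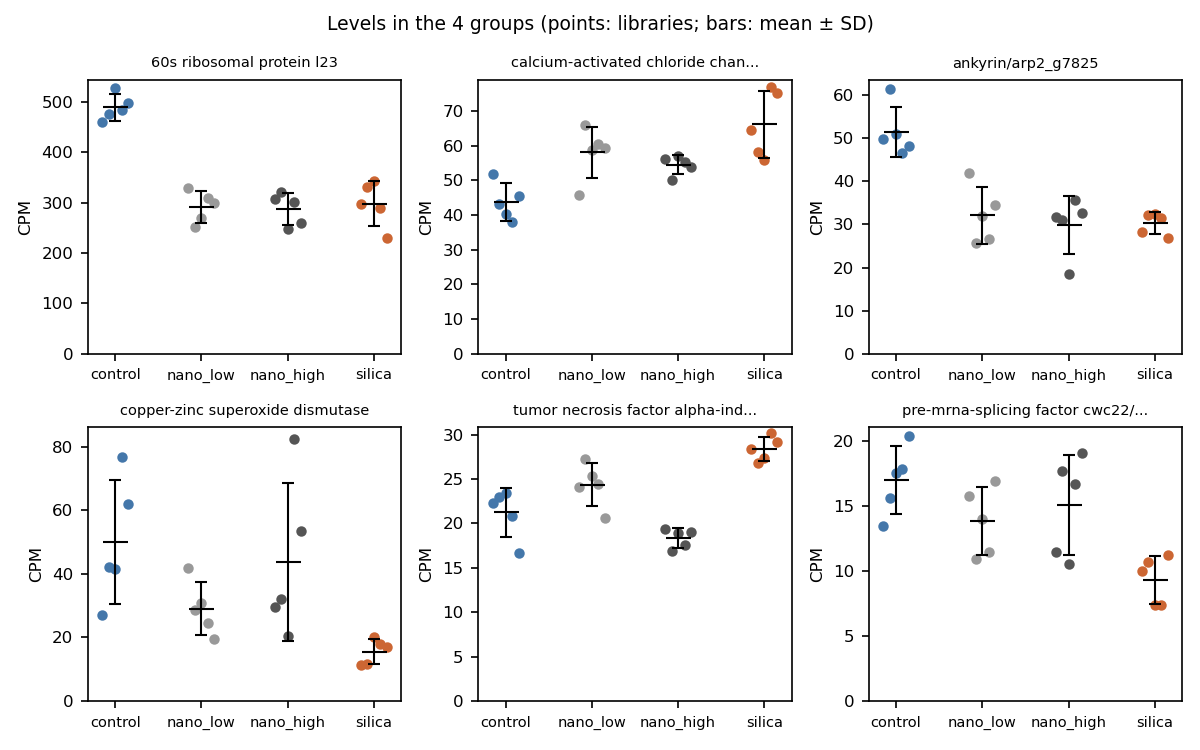
CPM of 6 names in the 4 groups, with points for libraries and bars for mean ± SD (n = 5). For 60s ribosomal protein l23 and ankyrin/arp2_g7825 the 3 exposed groups lie at one level below control, while for the 3 names of the lower row silica stands apart from nano_high.

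Several lists held names that differed between silica and nano_high, and those described were picked after their values were seen. Of 72 oxidative phosphorylation names 10 were higher in silica and 1 lower (2.99% and 2.37% over all names), with a median difference of 0.42, and 3 to 19 were higher when 1 library was left out. Nadh-ubiquinone oxidoreductase chain 4l, a core subunit of respiratory complex I, was at 213, 112, 139, 163 and 150 CPM in silica 1 to 5 and at 59.8, 35.8, 70.8, 32.9 and 32.4 CPM in nano_high 1 to 5. All silica libraries lay above all nano_high libraries (log2 difference 1.75 with SE 0.34, adjusted p = 0.0108 by edgeR), while control was at 177 ± 52.9 CPM, a difference of silica from control of -0.18 (adjusted p = 0.728). A further subunit of complex I, nadh dehydrogenase [ubiquinone] 1 subunit c2, was higher in silica by 1.13.

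Of 26 antioxidant names 6 were higher in silica than in nano_high and 1 lower (2.99% and 2.37% over all names), with 0 to 7 higher when 1 library was left out (0 without nano_high 5). Thioredoxin-2, a protein that reduces disulfides, was at 181 to 245 CPM in silica and 94.0 to 152 CPM in nano_high (log2 difference 0.76 with SE 0.16, adjusted p = 0.0174 by edgeR). Glutathione peroxidase, which removes peroxides, was higher by 0.50 and lay at 170 ± 15.5 CPM in silica, 120 ± 20.3 in nano_high and 175 ± 20.1 in control. Of 86 DNA replication and cell cycle names 7 were lower in silica than in nano_high and 0 higher (2.37% and 2.99% over all names), with 1 to 13 lower when 1 library was left out. Cyclin-t2, a partner of the kinase that releases paused RNA polymerase, was at 51.4 to 59.8 CPM in silica and 65.4 to 84.1 CPM in nano_high (log2 difference -0.45 with SE 0.08, adjusted p = 0.00662 by edgeR). Control was below both, at 42.1 to 51.1 CPM. The log2 difference from control was 0.18 for silica (adjusted p = 0.184 by edgeR) and 0.63 for nano_high (adjusted p = 0.000291 by edgeR). Of 10 peritrophic matrix and mucin names 1 was higher in silica than in nano_high and 2 lower (2.99% and 2.37% over all names), with a median of -0.10. Mucin-17, named for a membrane-bound mucin, was at 5418 to 8339 CPM in silica and 2568 to 3516 CPM in nano_high (log2 difference 1.09). Mucin 55b went the other way (log2 difference -0.81, adjusted p = 0.0252 by edgeR). Fatty acid-binding protein, a carrier of fatty acids, was at 15.9 to 24.8 CPM in silica and 27.4 to 35.9 CPM in nano_high (log2 difference -0.62). Mucin-17, mucin 55b and fatty acid-binding protein were not called in silica against control.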

How the data were processed

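Whole-animal RNA libraries from 4 groups of 5 were analysed as the authors deposited them, in 1 table of expected counts (estimated counts of reads per name) for 7784 names and 20 libraries. Per the submitters' processing notes, Salmon 0.12.0 and R 3.4.3 were used; the reference and the way transcripts were summed into names remain not given in the sources used here. Although the deposited table is called normalized, low values were near whole multiples of a constant close to 1 and totals differed between libraries, so it was treated as estimated counts. Per the labels' protocols, the libraries were poly-A selected and stranded, and sequenced 8 to a pool.

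Values were rounded, a name entered the test with a value of 1 or more in 5 or more libraries (7564 of them, 220 left out), and TMM scaling and the quasi-likelihood test of edgeR 4.0.16 in R 4.3.3 were run on all 20 libraries, so that all groups share 1 estimate of the spread. Limma 3.58.1 and DESeq2 1.42.0 served as alternatives, and Python 3.11.15, pandas 2.3.3, numpy 2.4.6 and matplotlib 3.10.9 made tables and figures. Tests were two-sided, and the fit was tested on simulated data. Totals limit the precision of low names, and this covers counting error only. The 39 name lists were patterns on the names. Members, lists and rules were chosen with earlier results of these data known. Named genes were the called names with the largest changes, smallest p or highest level, the smallest-p members of each list, and, added after their values were seen, the remaining called names, 2 further names and the names of silica against nano_high. Names did not match the reference table, so no positions or sequences are given. None of the replicate pairs was identical (0).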

Additional observations from a re-analysis of the deposited data

Results flagged for a closer look

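In silica, 1 library lay far from the other 4 in phosrestin i arrestin b arrestin/arp2_g2688 (silica 1 at 98.1 CPM, others 66.2 to 73.1), metallothionein protein crs5 (silica 2 at 131.2, others 87.7 to 98.3), c-type lectin ctl. (silica 1 at 8.30, others 6.03 to 6.54), 26s proteasome non-atpase regulatory subunit/arp2_g1763 (silica 4 at 16.2, others 20.7 to 22.2) and di-domain hemoglobin precursor (silica 4 at 2398, others 3065 to 3274). In control the same held for endoglucanase e-4 precursor (control 5 at 3621 CPM, others 1328 to 1965), dynamin-1 protein (control 1 at 49.7, others 41.1 to 43.6) and immediate early response 3-interacting protein (control 4 at 33.9, others 35.7 to 36.0). The total of silica 1, 54860000 counts to 4 digits, stood far above the other silica totals of 7912434 to 18222656. In all 190 groups of 5 libraries were examined and 9 were flagged in this way, and chance flags about 1 in 20.

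A difference between silica and nano_high, tested directly by edgeR, was called for copper-zinc superoxide dismutase (log2 difference -1.49), pre-mrna-splicing factor cwc22/arp2_g2533 (-0.70), tumor necrosis factor alpha-induced protein 8 protein 3 (0.63), cdd: cbm_14, chitin binding peritrophin-a domain (-1.35), fatty acid-binding protein (-0.62), mitochondrial ribosomal protein l35/arp2_g5915 (0.69) and 30s ribosomal protein s8/arp2_g2243 (1.08). The last 4 were not called in silica against control.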

How the results depend on the processing

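Names called in silica against control numbered 53. The count was 399 by DESeq2, 401 with only the silica and control libraries, 96 with TMM scaling without ribosomal names, and 0 without controls 4 and 5, 0 with the first component as a covariate and 0 with library totals only. It ran from 0 to 132 when 1 library was left out. The settings with TMM scaling without ribosomal names and with library totals only were chosen after seeing the data. By RLE size factors, limma-voom, both other filters and thinning to the shallowest library it was 46 to 60, and the share of higher names, 20.8%, was 32.6% by DESeq2, 6.52% after thinning and 8.93% with no filter. An unadjusted p under 0.05 was held by 601 names without controls 4 and 5, 740 with the covariate, 1552 with library totals only and 1577 with the replicate block. The ribosomal median was -0.28 with the covariate, and -0.52 to -0.28 over all settings.

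With the replicate block the count was 0 in silica against control, 267 in silica against nano_high and 0 in silica against nano_low. Same-numbered silica and control libraries had correlations of deviations from -0.12 to 0.32, over 0.1 in 1 of 5 pairs, and 1 of 5 silica libraries correlated best with its own number. For silica and nano_high they ran from -0.13 to 0.38, over 0.1 in 2 of 5 pairs, and 2 of 5 correlated best with their own number. Most pairs thus showed no sign of pairing by number, but so few pairs cannot exclude it.

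In silica against nano_high the count of 405 was 919 by DESeq2 and 77 to 648 when 1 library was left out. In silica against nano_low the count of 0 was 8 by DESeq2 and 0 to 0 when 1 library was left out. Of 1166 values of the 53 called names under alternatives, 0 reversed and 708 lost the call. The lack of reversals is all but fixed by the choice of these names by p from the same libraries. Of 858 list medians under alternatives 27 moved by more than the spread between replicates, mostly with the covariate, and 41 changed sign. Reversed values, none of them called, were those of di-domain hemoglobin precursor/arp2_g2466 (-0.24 to 0.14 when 1 library was left out), globin/arp2_g2285 (-0.032 with the covariate, -0.064 without controls 4 and 5) and vitelline membrane outer layer protein 1 /sw (-0.24 to 0.085 when 1 library was left out). The cause was not tested. Pools of libraries are not named in the labels, so sequencing batches were not examined.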
